A study of Homo sapiens with 8 samples.

Results

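The NR4A genes NR4A1 (also called NUR77), NR4A2 (NURR1) and NR4A3 (NOR1) were taken from the deposited expression table by their symbols. All 3 were listed, out of 16525 genes. The beta-cell line EndoC-βH5 is an established human line. It descends from fetal pancreas, and the immortalising transgenes had been removed from it. RNA was sequenced from 4 untreated cultures (CTRL) and from 4 cultures kept for 48 h with IL-1β, IFNγ and TNFα together (CYT). A strand-specific mRNA kit was used. No source used here says whether the cultures of a group were grown separately, so that the p-values measure the spread between these libraries. The comparison asks how inflammatory cytokines of the kind found in islets in type 1 diabetes change these genes.

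NR4A receptors are orphan members of the nuclear receptor family. Their ligand pocket is filled by bulky side chains, so that their activity follows the amount of the protein, its modification and its place in the cell rather than a hormone. They bind the NBRE, the response element named after NGFI-B, another name of NR4A1, as monomers. They bind paired sites as dimers, and NR4A1 and NR4A2 also pair with the retinoid X receptors. Their genes are immediate early genes, which cAMP, calcium and growth factor signals switch on within minutes through CREB, MEF2 and related factors, and their mRNAs decay quickly. In beta cells NR4A1 and NR4A3 are known from work on proliferation downstream of NKX6-1.

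The cAMP response element (CRE), the site that CREB binds, was searched for in the promoter windows of RefSeq on GRCh38.p14, which run from 250 bases before a gene's start to 50 bases after it. Windows were found for 2 of the 3 genes, NR4A3 and NR4A1. NR4A2 had no entry. The NR4A3 window, on the plus strand, held 4 copies of the CRE half-site TGACG counted on both strands, and all 4 lay in the 120 bases before the start, at chr9:99821765-99821884. That stretch is shown because it carries the sequence feature for which the family's cAMP response is known, with the half-sites in capitals.
NR4A3 promoter: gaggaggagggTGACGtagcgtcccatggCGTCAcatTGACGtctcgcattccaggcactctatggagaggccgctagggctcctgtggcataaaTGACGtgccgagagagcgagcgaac
Their first bases lay 109, 91, 83 and 25 bases before the RefSeq start. Of the 35116 windows in the table, 24.6% held at least 1 half-site and 0.313% held 4 or more. The full CRE, TGACGTCA, was in 1.85% of all windows and was not in these letters. Neither NR4A1 window, at chr12:52022582-52022881 and chr12:52037465-52037764, held a half-site, and both lie upstream of the cluster of starts of the shorter NR4A1 transcripts. None of the 3 windows held the NBRE (AAAGGTCA, in 1.22% of all windows), the STAT site GAS (TTCNNNGAA, in 7.66%) or an NF-kB site (in 11.3%). These matches describe the letters of the windows and say nothing of binding.

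The mRNA ends of the family are shown because their short life is tied to AU-rich elements, built from the pentamer ATTTA, to which decay factors such as the ZFP36 proteins bind. In the 3′ untranslated region of the longest coding transcript in GENCODE 29, the pentamer occurred 3 times in NR4A1 (557 bases), 4 times in NR4A2 (1312 bases) and 10 times in NR4A3 (3024 bases). The heptamer TATTTAT occurred 0, 1 and 2 times. For each gene 30 bases are given, with pentamers in capitals, at chr12:52059409-52059438 (plus strand), chr2:156325128-156325157 (minus strand) and chr9:99865188-99865217 (plus strand) on GRCh38. They were picked for holding the heptamer where there is one, and then for the most pentamers. They begin 465, 587 and 1321 bases after the stop codon.
NR4A1: cATTTAtatttgtgtattttcctggATTTA
NR4A2: ttattttgtgcctATTTAtgaataaatatt
NR4A3: tagctttgcctgtATTTAttgcaagaccac
In the 500 bases after the stop codon NR4A1 and NR4A3 held 2 pentamers each and NR4A2 held 1. Of 13231 coding genes with that much sequence, 52.9% held at least 1 and 26.6% held at least 2, so that the family is not set apart by this count. No member held the heptamer in these 500 bases, where 12.2% of the coding genes did.

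The values are CPM, the reads of a gene scaled to the total reads of its library. The libraries held 46767972 to 51145634 reads, so that 1 read was worth 0.0196 to 0.0214 CPM, and each NR4A value rests on 95 to 1364 reads. The column names carry a prefix that 1 CTRL and 1 CYT column share. These pairs are called A, B, C and D here. The prefixes of A and B end in 21 and those of C and D in 22, and the libraries stood apart by this ending (prefix sets 21 and 22), so that the members are given by pair. Of the 15 beta-cell markers examined, all 15 were listed. INS, which encodes insulin, stood at 2169 ± 744 CPM (SD, n = 4) in CTRL and 1846 ± 322 CPM (n = 4) in CYT, values that are uncertain because INS shares exons with the readthrough gene INS-IGF2. PDX1, a beta-cell transcription factor, fell from 383 ± 28.9 to 222 ± 10.5 CPM. In all, 10 of the 15 markers fell by the call described below, where 17.5% of all genes fell and 9.52% rose. None rose in limma, where 2 were higher at an unadjusted p below 0.05, a level for which no share of all genes is given here. With TMM scaling 7 fell and 1, NKX6-1, rose, against 11.7% and 13.0% of all genes. Further, 2 rose with edgeR (13.0% of all genes), 3 with DESeq2 (2360 of the 16525 genes) and 1 with the block (11.6% of all genes). NKX6-1 itself stood at 169 ± 24.7 and 222 ± 37.4 CPM. Of 17 markers of other islet, exocrine, stromal, vascular and blood cells, 8 were listed, and their summed level was 572 to 2274 CPM in CTRL and 661 to 2087 CPM in CYT, most of it from SST, the somatostatin gene. CPA1, an acinar enzyme, was the only one called (12.5%, against 27.0% of all genes), lower by 1.06 on the log2 scale. With the pair as a block, the fit described below, GCG (-1.47) fell and PPY (0.69) rose too, where 5852 of the 16525 genes were called. The vascular and blood cell markers PECAM1, VWF, PTPRC, CD68 and CD3E were not among the listed genes. In bulk RNA, fewer cells of a type and less RNA per cell cannot be told apart.

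NR4A1 rose with the cytokines. It is located on chromosome 12 at 52022832 to 52059507 (GRCh38, plus strand), and its symbol belongs to ENSG00000123358. In the CTRL libraries of pairs A, B, C and D it stood at 7.40, 5.88, 7.31 and 5.30 CPM. In the CYT libraries of the same pairs it stood at 10.6, 10.1, 27.5 and 17.0 CPM. Every CYT library was above every CTRL library, as for 10.8% of all genes, and the CYT libraries of pairs C and D were the highest. The means were 6.47 ± 1.04 CPM (SD, n = 4) in CTRL and 16.3 ± 8.07 CPM (n = 4) in CYT, a ratio of 2.52. On the scale of log2(CPM + 0.1), on which all changes are given unless said otherwise, the change was 1.21 ± 0.29 (SE), with an adjusted p of 0.00950 by limma over all genes and p = 0.0286 by a 2-sided exact permutation test of 4 against 4 libraries, the smallest it can give. A gene was called when the absolute change was above 0.5 and the adjusted p below 0.05. By this rule 27.0% of all genes were called, 9.52% as higher and 17.5% as lower, and NR4A1 was the only NR4A gene called.

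NR4A2 lies on chromosome 2 at 156324432 to 156342348 (minus strand, ENSG00000153234). It stood at 5.67, 5.00, 7.15 and 5.77 CPM in the CTRL libraries of pairs A to D and at 6.32, 5.89, 18.4 and 11.2 CPM in the CYT libraries. The CYT libraries of pairs C and D were above every CTRL library, whereas those of A and B lay within the range of CTRL. The means were 5.89 ± 0.903 and 10.5 ± 5.84 CPM (SD, n = 4 each), and the change of 0.67 ± 0.32 (SE) was not called (adjusted p = 0.139 by limma, p = 0.143 by the exact permutation test). Without the CYT library of pair C it was 0.35.

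NR4A3 lies on chromosome 9 at 99821855 to 99866891 (plus strand, ENSG00000119508). It stood at 2.65, 3.03, 2.59 and 1.86 CPM in CTRL and at 3.43, 2.82, 5.13 and 3.92 CPM in CYT, in the order of the pairs. The CYT library of pair B was the only one below a CTRL library, that of its own pair. The means were 2.53 ± 0.489 and 3.82 ± 0.982 CPM (SD, n = 4 each), and the change of 0.56 ± 0.23 (SE) was not called (adjusted p = 0.0906 by limma, p = 0.0571 by the exact permutation test). The summed level of the family was 12.9 to 17.0 CPM in CTRL and 18.9 to 51.0 CPM in CYT, and the groups did not overlap. The sum includes NR4A1, which did not overlap either, whereas NR4A2 and NR4A3 taken alone did. Of all single genes, 10.8% had every CYT library above every CTRL library.

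**Figure D1:**
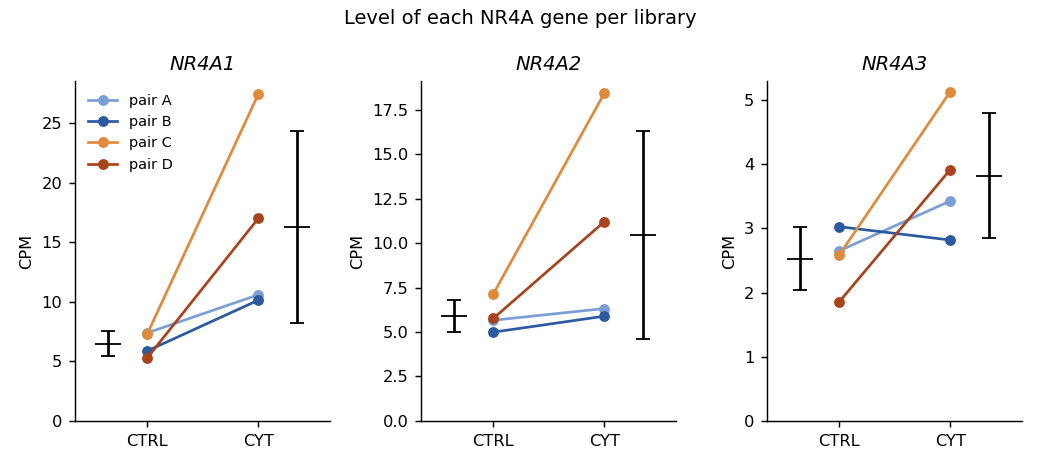
CPM of NR4A1, NR4A2 and NR4A3 in each library, with a line joining the CTRL and the CYT library of a pair (A to D) and bars for the mean ± SD of the 4 libraries of a group; each vertical axis starts at 0 and has its own scale. NR4A1 was higher in CYT in all 4 pairs, and in each gene the CYT libraries of pairs C and D were above those of A and B.

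Within pairs, NR4A1 was higher in CYT by 0.51, 0.78, 1.90 and 1.66 in A, B, C and D, and NR4A2 by 0.16, 0.23, 1.36 and 0.95. The CYT library was higher in all 4 pairs for both, as it was for 22.2% of all genes. NR4A3 was higher in 3 of the 4 pairs, with differences of 0.36, -0.10, 0.96 and 1.04. With the pair as a replicate block in limma the changes stayed at 1.21, 0.67 and 0.56 and all 3 genes were called, with adjusted p-values of 6.76e-05 for NR4A1, 0.00424 for NR4A2 and 0.0225 for NR4A3. In this blocked fit 11.6% of all genes were called as higher.

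The scaling of the libraries also bore on NR4A2 and NR4A3. The median change of all genes was -0.17 on the CPM scale and -0.02 after TMM, a scaling by a weighted mean of log ratios that leaves out genes with extreme ratios or levels, and 64.8% of the called genes were lower on the first scale against 47.3% on the second. After TMM the changes were 1.36 for NR4A1 (adjusted p = 0.00501, limma), 0.82 for NR4A2 (adjusted p = 0.0682) and 0.71 for NR4A3 (adjusted p = 0.0418), so that NR4A1 and NR4A3 were called, as were 13.0% of all genes as higher and 11.7% as lower. With edgeR and TMM on the recovered reads the log2 fold changes were 1.47, 0.98 and 0.73 (adjusted p = 0.00417, 0.0412 and 0.0428), all 3 called, where 13.0% of all genes were called as higher. The direction was the same under each scaling tried.

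**Figure D2:**
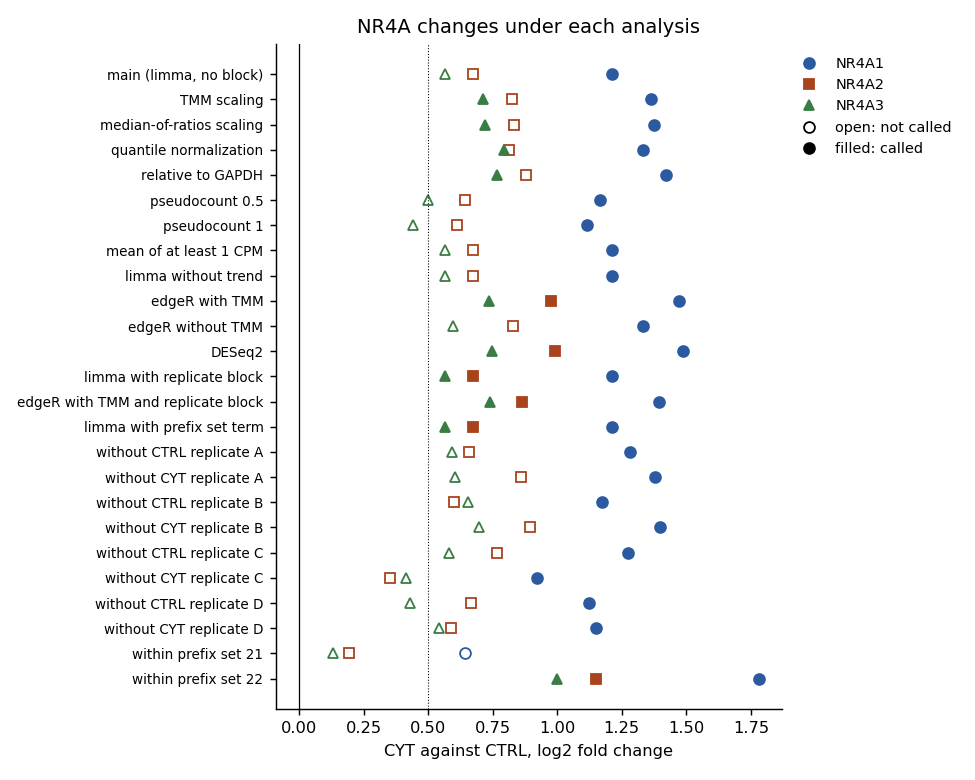
Log2 fold change of CYT against CTRL for NR4A1 (circles), NR4A2 (squares) and NR4A3 (triangles) under the main analysis and each alternative; filled symbols passed the call, the dotted line marks the threshold of 0.5. NR4A1 was filled in every row but the fit within prefix set 21, whereas NR4A2 and NR4A3 were called in some rows only. An open symbol to the right of the dotted line missed the call by its adjusted p.

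NR4A1 changed more than the other NR4A genes in the same libraries. The log2 ratio of NR4A1 to NR4A2 was 0.13 ± 0.22 (SD, n = 4) in CTRL and 0.67 ± 0.10 (n = 4) in CYT, and that of NR4A1 to NR4A3 was 1.33 ± 0.26 and 1.98 ± 0.35. The differences of 0.54 and 0.65 were each present in 4 of 4 pairs without overlap of the groups (exact permutation test, p = 0.0286 and 0.0429 after Benjamini-Hochberg adjustment over 3 ratios). The ratio of NR4A2 to NR4A3 differed by 0.11 (1.20 ± 0.39 against 1.31 ± 0.44, exact permutation p = 0.657), less than the spread between libraries. A ratio within a library shows unequal change and does not depend on how the libraries are scaled, apart from the pseudocount.

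Levels of different genes were compared per length, as TPM, a scale that takes the length of each gene into account. NR4A2 had the highest level, NR4A1 came next and NR4A3 was lowest. In CTRL they stood at 5.76 ± 1.54, 3.39 ± 0.644 and 1.51 ± 0.202 TPM (SD, n = 4) and in CYT at 11.4 ± 7.19, 9.59 ± 5.50 and 2.56 ± 0.884 TPM. NR4A3 was the lowest in each of the 8 libraries and did not overlap with NR4A1 in either group. The ranges of NR4A2 and NR4A1 overlapped in both groups, at 4.23 to 7.64 and 2.71 to 4.25 TPM in CTRL and 5.56 to 20.8 and 5.21 to 16.8 TPM in CYT. These values divide by all annotated exon bases, of which NR4A1 has 7295 through its distal starts. With the longest transcript as the length, NR4A2 was above NR4A1 in 4 of 4 CTRL libraries but in 0 of 4 CYT libraries, at 10.0 ± 5.99 against 11.1 ± 6.01 TPM, so that their order in CYT depends on the length used. The share of the family's TPM that came from NR4A1 was 31.9% ± 2.55 in CTRL and 40.9% ± 0.675 in CYT. All 3 were genes of low level in CTRL, where 32.8% of the genes with a length were below NR4A2, 22.2% below NR4A1 and 11.5% below NR4A3.

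The rise was larger in prefix set 22 than in set 21. Set 21 holds only the libraries of pairs A and B, and set 22 only those of pairs C and D. This split was chosen after the pair values of the NR4A genes were seen, so that its p-values are no independent test. The SEs and p-values within a set come from the same fit to all libraries, so that they pool the spread of both sets. Within set 22 the changes were 1.78 ± 0.24 (SE) for NR4A1, 1.15 ± 0.24 for NR4A2 and 1.0 ± 0.27 for NR4A3, all called (adjusted p = 0.000279, 0.00397 and 0.0148, limma), where 8.75% of all genes were called as higher. Within set 21 they were 0.64 ± 0.24, 0.20 ± 0.24 and 0.13 ± 0.27, none called (adjusted p = 0.0684, 0.578 and 0.753), where 10.8% of all genes were called as higher. The differences between the sets were 1.14 ± 0.34, 0.96 ± 0.34 and 0.87 ± 0.38. Each had an unadjusted p below 0.05 (0.00681, 0.0161 and 0.0409), as had 0.926% of all genes with a larger rise in set 22. With each library left out in turn, the unadjusted p stayed below 0.05 in all 8 fits for NR4A1 but not for the others. Without the CYT library of pair C the difference was 0.60 for NR4A2 and 0.68 for NR4A3, and neither p stayed below 0.05. That of NR4A2 also rose above 0.05 without the CTRL library of pair A or D, and that of NR4A3 without the CTRL library of pair B or D or the CYT library of pair B. None passed adjustment over all genes (adjusted p = 0.999 for each), as only 5 genes did, or 0.0303%. With the pair as a block 0.411% of all genes were called, and NR4A1 was among them (adjusted p = 0.00456), while NR4A2 and NR4A3 were not (adjusted p = 0.0743 and 0.275).

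The sets were also compared within each condition. Among CTRL libraries set 22 was -0.08 for NR4A1, 0.27 for NR4A2 and -0.35 for NR4A3 against set 21, none called, where 18.4% of all genes were. Among CYT libraries it was 1.05 higher for NR4A1 and 1.22 higher for NR4A2 (adjusted p = 0.0237 and 0.0139, limma), where 9.04% of all genes were called, and 0.51 for NR4A3 (adjusted p = 0.227). SST, which marks delta cells, stood at 1761 to 2143 CPM in the 4 libraries of set 21 and at 355 to 653 CPM in those of set 22. Other markers went the other way. GCG stood at 6.47 to 27.2 CPM in set 21 and at 40.7 to 222 CPM in set 22. KRT19 stood at 79.5 to 85.4 and at 96.6 to 163 CPM. The ranges of PPY, GHRL, CPA1, COL1A1 and PDGFRB overlapped between the sets. The part of these differences in the NR4A values was not tested. Among genes used to check the response to IFNγ, IRF1, a transcription factor that interferons induce, rose by 5.73 in set 21 and by 6.33 in set 22. CXCL10, a chemokine, stood at 1.0 and 1.55 CPM in the CTRL libraries of set 21 and at 0.0398 and 0 CPM in those of set 22, and GBP1, a guanylate-binding protein, at 1.67 and 2.48 against 0.0199 and 0.0391 CPM. The low levels of both genes were thus higher in the CTRL libraries of set 21, and their part in the NR4A values was not tested. What else sets the prefix sets apart is not stated in the sources used here.

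**Figure D3:**
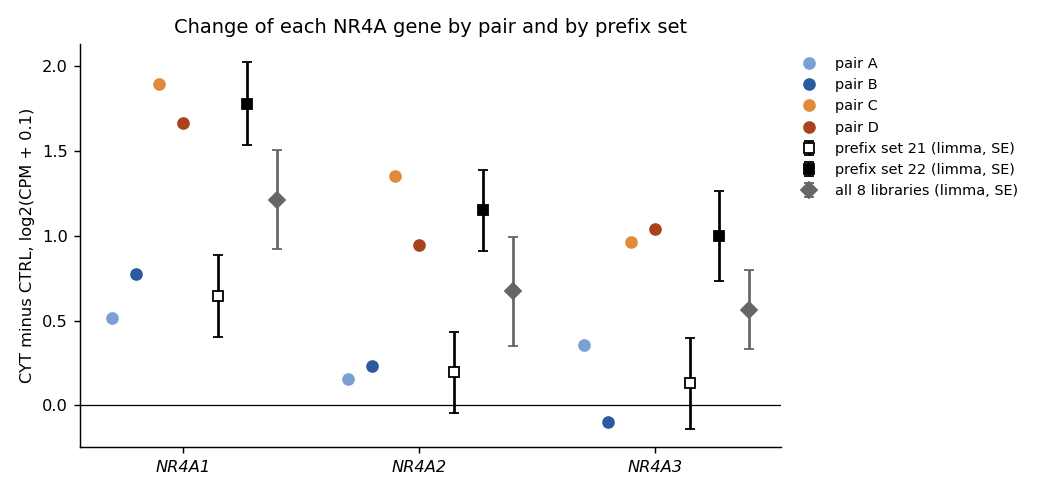
Change of NR4A1, NR4A2 and NR4A3 in each pair (coloured points, CYT minus CTRL in log2(CPM + 0.1)), within prefix sets 21 and 22 (open and filled squares, limma estimate ± SE) and over all 8 libraries (grey diamonds ± SE). Pairs C and D lay above A and B for each gene, and the estimates for set 22 exceeded those for set 21 by 0.87 to 1.14.

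Of 45 other nuclear receptor genes 33 were listed. Among them 8 rose and 4 fell, or 36.4% called against 27.0% of all genes (9 rose and 3 fell with TMM), with a median change of 0.05. The largest rises were those of HNF4G, a receptor of the HNF4 group, from 1.19 ± 0.351 to 4.54 ± 1.21 CPM (1.85), NR1D1, the clock repressor REV-ERBα, from 35.3 ± 10.9 to 124 ± 26.9 CPM (1.83), and RORA, which acts on the same clock elements as NR1D1, by 1.33. The largest falls were those of RXRG (-1.57), THRA, the thyroid hormone receptor α (-1.01), and VDR, the vitamin D receptor (-0.94). NR4A1 with 1.21 thus lay below 3 of the other receptors. The genes NR1D1 and THRA overlap on opposite strands of chromosome 17, from 40092787 to 40093867. The orientation of strand counting was not checked, so that reads of both genes in that stretch are uncertain. NR3C1, the glucocorticoid receptor, named after its value was seen, rose by 0.94 (adjusted p = 0.00652, limma). In the comparison of prefix sets, 9 of the 33 had a difference above 0, against 31.6% of all genes. By limma, 0 had an unadjusted p below 0.05 with a larger rise in set 22 (1 with TMM), whereas all 3 NR4A genes had. The split was chosen after the pair values of the NR4A genes were seen.

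**Figure D4:**
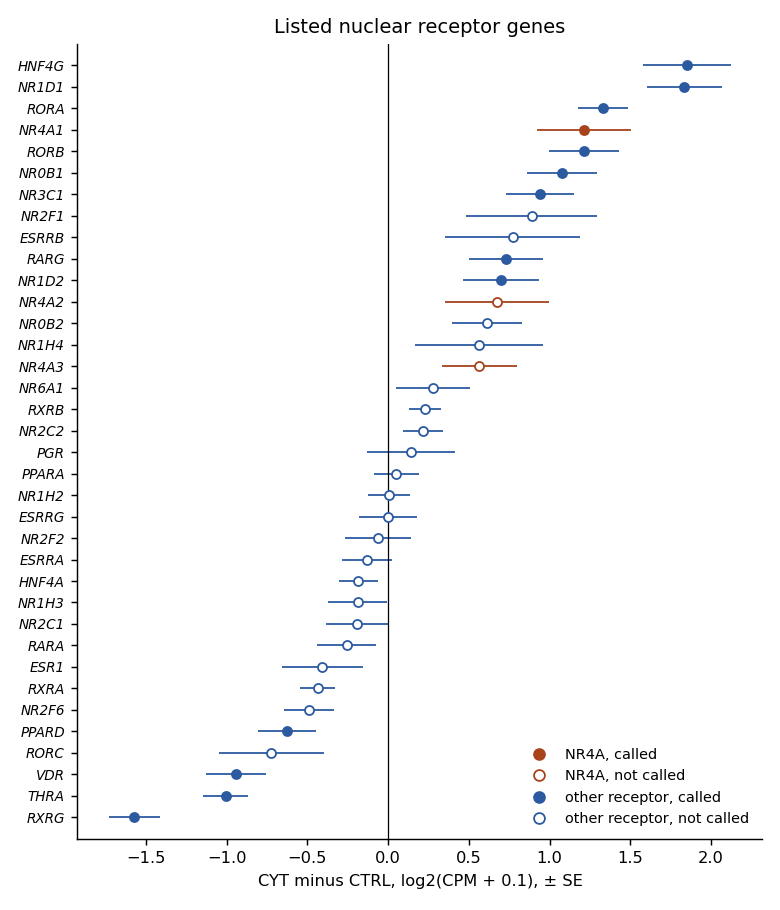
Change of each listed nuclear receptor gene, CYT minus CTRL in log2(CPM + 0.1) with its SE, ordered by size; red points are the NR4A genes, blue points the other receptors, and filled points were called by limma. NR4A1, at 1.21, is called, NR4A2 and NR4A3 are not, and RXRG has the largest fall at -1.57.

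The retinoid X receptors are the partners with which NR4A1 and NR4A2 form dimers. RXRG fell from 72.4 ± 5.63 to 24.6 ± 5.31 CPM (adjusted p = 3.59e-05, limma). RXRA stood at 105 ± 8.79 and 77.5 ± 4.54 CPM, a change of -0.44 that did not reach the threshold of 0.5 although its adjusted p was 0.0116, and RXRB at 66.0 ± 2.86 and 77.4 ± 2.56 CPM (0.23, adjusted p = 0.0992). After TMM the changes were -0.28 for RXRA (adjusted p = 0.111, limma) and 0.38 for RXRB (adjusted p = 0.00938), neither called. Both were named after their values were seen. Of the 25 genes for partners and coregulators, the retinoid X receptors included, 24 were listed, 3 rose and 3 fell (25.0% called, against 27.0% of all genes, median -0.05). PML, which forms nuclear bodies, rose by 1.98, the coactivator NCOA3 by 1.17 and the NF-kB subunit RELA by 0.52. Besides RXRG, the kinase AKT1 was among those that fell (-0.59). With TMM only RXRG fell and 5 rose, MDM2 and XPO1 among them, which are named after their values were seen.

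Most of the other immediate early genes rose. Of 39 on the list 34 were listed, 26 rose and 3 fell (85.3% called, against 27.0% of all genes), with a median change of 1.33, and the counts were the same with TMM. ATF3, a stress-induced factor that binds CRE and AP-1 sites, rose from 1.95 ± 0.381 to 140 ± 52.6 CPM (6.05). KLF4, a zinc finger factor, rose by 4.87 and MAFF, a small MAF protein, by 4.67. The falls were those of EGR3 (-1.34) and EGR4 (-1.24), zinc finger factors of the EGR family, and of TSC22D3, a glucocorticoid target (-0.95). The change of NR4A1, 1.21, was thus below the list's median, and those of NR4A2 and NR4A3 were lower still.

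The difference between prefix sets 22 and 21 was above 0 for all 3 NR4A genes and for 30 of the 34 early genes, against 31.6% of all genes, and the median was 0.45 for the early genes and -0.11 for all genes. With TMM it was above 0 for 31 of the 34, against 48.2% of all genes, with medians of 0.52 and -0.01. For 10 of them it had an unadjusted p below 0.05, against the 0.926% of all genes given above, and 6 were called with the pair as a block, named here after their values were seen: JUN, JUNB, EGR1, IER3, ATF3 and VGF. EGR1, whose promoter is a standard target of growth factor signals, rose by 0.74 in set 21 and by 2.03 in set 22. VGF, which encodes a neuroendocrine secretory protein, rose by 1.19 and 2.46. The genes of the list share these libraries and are not independent of each other.

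**Figure D5:**
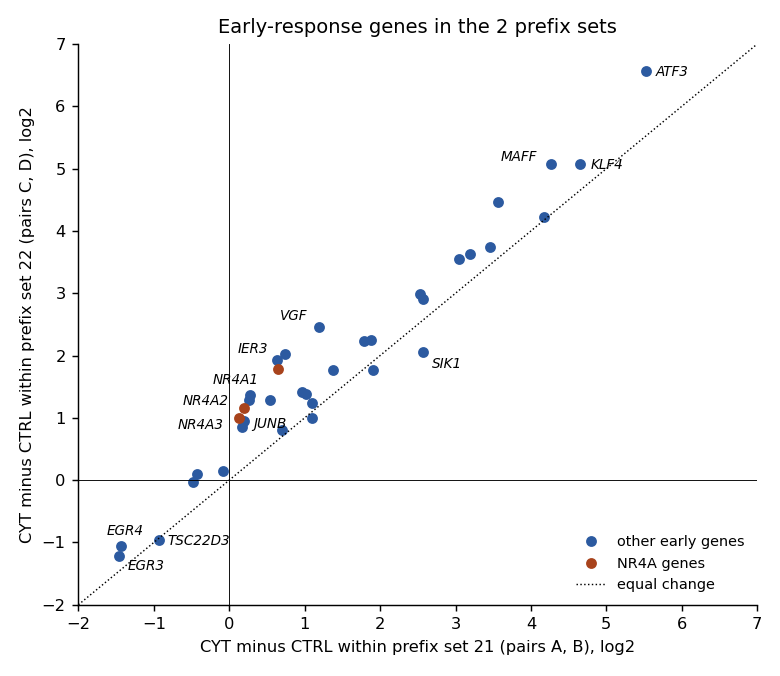
Change of the 34 listed immediate early genes (blue) and the NR4A genes (red) within prefix set 21 (horizontal axis) and within prefix set 22 (vertical axis), CYT minus CTRL in log2(CPM + 0.1); the dotted line marks equal change. The NR4A genes and 30 of the 34 other genes lie above the line.

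Upstream of the NR4A genes, 47 of 50 genes for cAMP, calcium and kinase signalling were listed, of which 7 rose and 7 fell (29.8% called, against 27.0% of all genes, median -0.02), or 10 and 3 with TMM. SIK1, a kinase that restrains CREB coactivators and is itself a CREB target, rose from 0.416 to 2.42 CPM (2.31). Its reads may be shared with the near-identical copy SIK1B, so that this value is uncertain. CREM, which encodes activators and the repressor ICER at CRE sites, rose by 1.53, and RPS6KA5, the kinase MSK1, which phosphorylates CREB, by 1.49. CAMK2A, a calcium-dependent kinase, fell by 2.18, NFATC4, a calcineurin target, fell by 1.05, and GIPR, the receptor for the incretin GIP, fell by 0.92 (adjusted p = 0.0145 by limma and 0.0552 with TMM, where it was not called).

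Of 30 genes reported as NR4A targets, most of them in other tissues, 18 were listed, and 8 fell while 0 rose by limma (44.4% called, median -0.50), where 17.5% of all genes fell and 9.52% rose. At an unadjusted p below 0.05, 2 were higher and 10 lower. No share of all genes at this unadjusted p is given here, so that these counts have no base rate beside them. With TMM, edgeR and DESeq2 8 fell and 2 rose, LPIN1 and TOX in the case of TMM, both named after their values were seen. RET, a receptor of neurotrophic signals that NR4A2 controls in dopamine neurons, fell from 31.1 ± 7.37 to 7.55 ± 0.805 CPM, by 2.0 on the log2 scale. TH, the rate-limiting enzyme of dopamine synthesis, fell by 1.48, and E2F1, a driver of the cell cycle, by 1.62. TH changed by -2.08 in set 21 and by -0.88 in set 22. NFKBIA, which encodes an inhibitor of NF-kB and is named after its value was seen, was not called over all libraries (0.40, adjusted p = 0.268) and differed by 1.51 between the sets, from -0.35 in set 21 to 1.16 in set 22.

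Of 12 genes for factors that act on AU-rich and other short-lived mRNAs, all 12 were listed, 2 rose and 0 fell by limma (16.7% called, against 27.0% of all genes, median 0.15). At an unadjusted p below 0.05, 4 were higher and 0 lower, with no share of all genes at that level given here. Also by the calls of edgeR and DESeq2, 4 were higher and 0 lower, where 13.0% of all genes were called as higher by edgeR. ZC3H12A, the nuclease regnase-1, rose from 8.07 ± 4.16 to 26.7 ± 1.33 CPM (1.87), and ZFP36, tristetraprolin, from 14.4 ± 4.74 to 31.6 ± 6.51 CPM (1.16). With TMM 4 rose, the others being RC3H1 and RC3H2, which encode the roquin proteins and are named after their values were seen. The RNA-stabilising factor ELAVL1, named after its value was seen, stood at 41.8 ± 3.55 and 42.7 ± 4.05 CPM.

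The changes of the NR4A genes were set beside those of the 9 listed genes that start within 250 kb of them. Near NR4A1, on chromosome 12, ANKRD33 rose from 0.377 to 2.69 CPM (2.56, adjusted p = 8.08e-05, limma); its start lies at 51887960, before that of NR4A1. TAMALIN, the nearest, stood at 37.6 ± 2.21 and 27.7 ± 7.10 CPM and was not called, nor were ACVR1B, ATG101, FIGNL2 and TMDD1. Near NR4A2 only GPD2, the mitochondrial glycerol phosphate dehydrogenase, was listed, at 46.2 ± 7.98 and 46.1 ± 2.18 CPM. Near NR4A3, STX17, a syntaxin of autophagy, rose from 23.3 ± 1.60 to 36.9 ± 5.52 CPM (0.65), and its divergent transcript STX17-DT stood at 1.97 and 1.15 CPM (-0.79, adjusted p = 0.0538, and 0.00537 with the replicate block, where it was called). In all, 2 of the 9 were called, a share below the 27.0% of all genes. An antisense gene, ENSG00000259884, which the table does not list, shares 754 of the 7295 exon bases of NR4A1. The methods name the default settings of HTSeq, which count by strand, and the kit marks strand. The orientation used was not checked, so that the reads of NR4A1 in that stretch are uncertain.

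The genes whose pattern over the 8 libraries was most like that of a member were taken from the 14683 genes whose mean over the 8 libraries was 1 CPM or more, by Pearson's r of log2(CPM + 0.1). The 8 values share condition and prefix set, and r is a description. For NR4A1 they were VGF (r = 0.990), PIM1, a kinase induced by cytokines (0.982), ADCY2, an adenylate cyclase (0.973), SERTAD1 (0.972) and TNIP1, which restrains NF-kB signals (0.971). For NR4A2 they were GABARAPL1, of the autophagy machinery (0.983), MAP2K3, a kinase of the p38 pathway (0.981), PIM3 (0.964), TRAF2, an adaptor of TNF receptors (0.962), and MAFK (0.961). For NR4A3 they were JUNB (0.988), TNIP1 (0.960), CPNE4 (0.943), ENSG00000289038 (0.932) and IER3 (0.926). TNIP1 was the only gene in more than 1 of these lists. MAP2K3 changed by 0.63 and was not called (adjusted p = 0.0879, limma), but it was with the pair as a block (adjusted p = 0.000798, limma). Among themselves the members had r = 0.920 for NR4A1 and NR4A2, 0.910 for NR4A1 and NR4A3 and 0.798 for NR4A2 and NR4A3. NR4A1 was thus 9th among the genes most like NR4A3, while NR4A2 was 218th.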

How the data were processed

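Strand-specific mRNA libraries were sequenced from 4 CTRL and 4 CYT cultures. Per the labels, the authors aligned reads to GRCh38 with TopHat2 2.1.1 and counted them with HTSeq 0.9.1 at default settings, and the methods name Ensembl release 107. The deposited values are CPM, made with edgeR by the authors, who name a cut-off of 0.5 CPM in at least 4 samples. In the 8 libraries used here, 371 of the listed genes were above 0.5 CPM in fewer than 4. Another 4 columns of values were not used. All values used were within 0.01 of a whole number of reads, so reads were recovered, and 20.1% to 26.6% of each library's reads fell outside the listed genes.

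The main test was limma 3.58.1 (R 4.3.3, intensity trend, no block) on log2(CPM + 0.1), with Benjamini-Hochberg adjustment over 16525 genes. Alternatives were other scalings, pseudocounts of 0.5 and 1, a mean of at least 1 CPM, no trend, edgeR 4.0.16 and DESeq2 1.42.0 on recovered reads, a replicate block, a term for the prefix set, and each library left out. The fits within and between prefix sets were chosen after the pair values were seen. The columns carry no replicate number. The pairing by prefix was checked by the correlation, over genes, of deviations from group means, which was 0.57, 0.59, 0.80 and 0.74 in pairs A to D, though A and B were not told apart (0.59 and 0.57 when crossed). TPM used GENCODE 29 lengths (16167 genes). Tests were also run on simulated counts drawn independently for each library, with no level shared within pairs or prefix sets. The outcome is not reported here, and the run does not show how the tests act where pairs or sets differ.

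The members, gene lists and tests were chosen with earlier results of these data known. Named from each list were all called genes if 6 or fewer, otherwise the 3 largest rises and falls, with the genes near and most like each member, and INS, PDX1 and NKX6-1. Some genes that this rule names are not reported here. Python 3.11.15 with pandas 2.3.3, scipy 1.17.1 and numpy 2.4.6 was used for tables and matplotlib 3.10.9 for figures.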

Additional observations from a re-analysis of the deposited data

Results flagged for a closer look

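Between the prefix sets, NR4A1 and 12 genes of the other lists changed by different amounts with the pair as a replicate block (limma, adjusted over all genes), a test chosen after the pair values were seen. No cause of these differences was tested. NR4A1 rose by 1.14 more in set 22 (log2, adjusted p = 0.00456). Among the early genes, EGR1 rose by 1.30 more, IER3 by 1.29, VGF by 1.26, ATF3 by 1.04, JUN by 0.90 and JUNB by 0.76. TH fell less in set 22, with a difference of 1.21. NFKBIA differed by 1.51 and ZC3H12A by 1.25. Of the interferon-response genes, IRF1 differed by 0.60, CXCL10 by 4.29 and GBP1 by 4.10, and for CXCL10 and GBP1, which had 2 or fewer reads in each CTRL library of set 22, the size depends on the pseudocount. No NR4A gene had a single library far enough from the other 3 of its group to be singled out by Dixon's criterion.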

How the results depend on the processing

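The change of NR4A1 kept its direction under every alternative and was called in each but the fit within prefix set 21 (0.64). Left out in turn, the libraries gave 0.92 to 1.40 for NR4A1, 0.35 to 0.89 for NR4A2 (the lowest without the CYT library of pair C, which thus moved the value by more than 1.5 times) and 0.42 to 0.70 for NR4A3, with NR4A1 called and the others not called in all 8. NR4A2 became called with edgeR and TMM (0.98), DESeq2 (0.99), the replicate block (0.67 in limma, 0.86 in edgeR with TMM), the prefix set term (0.67) and within set 22 (1.15). NR4A3 became called after TMM (0.71), median-of-ratios (0.72) and quantile scaling (0.79), relative to GAPDH (0.77), with edgeR and TMM (0.73), DESeq2 (0.75), the block (0.56 in limma, 0.74 in edgeR with TMM), the prefix set term (0.56) and within set 22 (1.0). The difference of NR4A1 between the sets, 1.14, was called with the block, and with each library left out in turn it ranged from 0.79 to 1.48 (0.60 to 1.31 for NR4A2 and 0.64 to 1.10 for NR4A3). Of the genes named by rule, the block changed the calls of NR4A2, NR4A3, STX17-DT and MAP2K3, all 4 to called. In limma the block moved no gene list's count of calls by over 1.5 times but those of the NR4A genes and of the markers of other cells, from 1 to 3 each. With 7 libraries no ratio can pass the exact test (smallest p = 0.0571), and the changes ranged from 0.46 to 0.62 for NR4A1 to NR4A2, 0.51 to 0.77 for NR4A1 to NR4A3 and -0.0647 to 0.26 for NR4A2 to NR4A3, which turned to -0.0555 without the CTRL library of pair B and to -0.0647 without the CYT library of pair C. The number of mRNA decay genes called, 2, became 4 with TMM, median-of-ratios, GAPDH, edgeR with TMM (also with the block) and DESeq2. For NR4A3, with 95 to 255 reads, counting error adds to the spread between libraries.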
